A study of Mus musculus with 28 samples.

Results

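Named genes of ventricular repolarization, 9 in all, were followed through 28 RNA-seq libraries of mouse ventricular myocardium: the pore genes Kcnd2, Kcnd3, Kcna5, Kcnh2, Kcnq1, Kcnj2, Kcnj11 and Kcnk3, and the accessory gene Kcnip2. They were taken by symbol from a table of 45513 gene rows, and all 9 were among the 24273 genes that passed the filter on low counts. Each library came from 1 male adult C57BL/6 mouse. At 6 weeks of age the mice had either 5/6 nephrectomy in stages, a surgical model of chronic kidney disease (CKD), or a sham operation. All groups, controls included, ate chow with 1% hydroxyproline, an oxalate precursor, and 0.5% calcium. On day 7 they were gavaged once with Oxalobacter formigenes (Oxf), a gut bacterium that degrades oxalate, or with its culture medium as vehicle. The groups held 10 sham-vehicle, 6 CKD-vehicle, 5 sham-Oxf and 7 CKD-Oxf libraries. The mice carry identity numbers that run in separate blocks: 901 to 910 for sham-vehicle, 913 to 920 for CKD-vehicle, 921 to 929 for sham-Oxf and 931 to 940 for CKD-Oxf. The labels do not say what order the numbers follow, nor whether the operations, cages or harvests were shared. How high the channel genes stood in the 4 groups, and whether they followed mouse number within a group, were the questions asked of these counts.

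A ventricular action potential ends when potassium leaves the cell through several currents that open in turn. Kcnd2 and Kcnd3 encode the Kv4 pores of the fast transient outward current, and Kcnip2 encodes KChIP2, the calcium-binding partner that brings Kv4 channels to the surface and slows their inactivation. Kcna5 encodes a pore of the slow outward current of mouse ventricle. Kcnh2 (ERG) and Kcnq1 encode the pores of the rapid and slow delayed rectifiers, which dominate late repolarization in large mammals and contribute little current in the adult mouse ventricle. Kcnj2 encodes the main inward rectifier that holds the resting potential, Kcnj11 the pore of the ATP-sensitive channel, and Kcnk3 the leak channel TASK-1, which is best known from atrial muscle. In the mouse heart Kcnip2 transcription is known to follow the circadian clock through the factor Klf15, so clock genes are given beside the mouse numbers. A clock score was computed for each library as the mean log2 CPM of 10 genes that peak with Dbp minus that of 4 genes that peak with Arntl, relative to sham-vehicle.

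On GRCm38 the genes lie at chr6:21215503-21729805 (Kcnd2), chr3:105452330-105674002 (Kcnd3), chr19:45791839-45816061 (Kcnip2), chr6:126532551-126535412 (Kcna5) and chr5:24319589-24351604 (Kcnh2). The others lie at chr7:143106362-143427042 (Kcnq1), chr11:111066164-111076821 (Kcnj2), chr7:46093953-46100764 (Kcnj11) and chr5:30588170-30625271 (Kcnk3). Kcnip2, Kcna5, Kcnh2 and Kcnj11 are on the minus strand. The promoters of 6 members (Kcnd2, Kcnd3, Kcnip2, Kcna5, Kcnh2 and Kcnj2) were found in the RefSeq promoter table (GRCm38.p6), which spans 250 bases before to 50 after a start. The following are shown because their genes carry the results below: Kcnh2 was the member called between gavage groups, Kcnj2 had changes of the opposite sign, and Kcnip2 had the smallest p for its relation with mouse number. Capitals mark matches on either strand to the E-box CACGTG, a site of clock factors, to the GC box GGGCGG and to the CCACCC box, a site of Krüppel-like factors.
Kcnh2 (chr5:24329542-24329841, - strand): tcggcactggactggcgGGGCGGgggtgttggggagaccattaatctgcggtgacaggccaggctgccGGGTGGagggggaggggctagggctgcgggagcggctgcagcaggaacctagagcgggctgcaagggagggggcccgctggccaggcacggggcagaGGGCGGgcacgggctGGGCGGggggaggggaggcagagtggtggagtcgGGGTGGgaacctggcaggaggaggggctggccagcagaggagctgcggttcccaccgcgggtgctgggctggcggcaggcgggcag
Kcnj2 (chr11:111065914-111066213, + strand): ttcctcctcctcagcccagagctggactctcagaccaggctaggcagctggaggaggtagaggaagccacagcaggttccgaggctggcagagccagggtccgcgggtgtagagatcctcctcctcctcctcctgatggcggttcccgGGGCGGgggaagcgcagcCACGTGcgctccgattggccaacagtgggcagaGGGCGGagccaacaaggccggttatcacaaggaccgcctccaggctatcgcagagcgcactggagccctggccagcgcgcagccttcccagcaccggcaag
Kcnip2 (chr19:45816014-45816313, - strand): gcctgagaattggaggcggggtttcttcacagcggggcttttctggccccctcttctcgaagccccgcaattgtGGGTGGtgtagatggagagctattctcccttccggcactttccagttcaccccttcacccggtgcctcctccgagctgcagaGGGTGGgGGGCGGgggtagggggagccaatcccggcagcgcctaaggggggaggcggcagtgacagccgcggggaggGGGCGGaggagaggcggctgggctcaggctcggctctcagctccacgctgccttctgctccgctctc
The Kcnh2 window held 3 GC boxes and 2 CCACCC boxes, and the Kcnip2 window 2 of each. The Kcnj2 window held 2 GC boxes and an E-box whose first base lies at -84 from the start; the other 5 windows held no E-box. Over all 32851 promoters of the same length, 35.7% held a GC box, 31.5% a CCACCC box and 7.15% an E-box. No match to the D-box (TTATGTAA or TTACGTAA, 1.06% of all promoters) or to AGGTCA, the half-site of retinoid-related orphan receptors (16.3%), lay in any of the 6 windows. The start used for Kcnh2 lies 22 kb inside the annotated gene.

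Library totals ran from 19.8 M to 65.4 M counts. The share of counts on 7SL RNA (Rn7s1 and Rn7s2), an abundant noncoding RNA, ran from 1.83% to 20.98% and averaged 9.78% and 13.6% in the sham and CKD vehicle groups, and 4.14% and 8.81% after Oxf. Sham-Oxf mouse 921 had the lowest total and only 15879 genes with a count, against 27128 to 33995 in the others. All 6 cardiomyocyte and all 4 ventricular markers were present in every library. Atrial markers were present in every library too, with a summed level of 62.8 to 2775 CPM (counts scaled to a common library total). Adipocyte markers summed to between 0 and 215.8 CPM and skeletal muscle markers to between 0.73 and 506.6 CPM, with Adipoq, Plin1, Ucp1, Cidec, Myh2, Myh4 and Mybpc1 at 0 in some libraries. In bulk tissue, fewer cells of a type and less RNA per cell cannot be told apart.

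Scaled to annotated exon length and averaged over all libraries, Kcnk3 and Kcnh2 stood highest and both Kv4 genes lowest. Mean levels over the 28 libraries were 19.3 ± 6.55 CPM per kb (SD) for Kcnk3, 15.8 ± 4.99 for Kcnh2, 12.1 ± 2.17 for Kcnj11 and 10.6 ± 3.39 for Kcna5. Below these lay Kcnip2 at 9.11 ± 2.70, Kcnq1 at 8.68 ± 2.49, Kcnj2 at 4.73 ± 1.55, Kcnd2 at 3.48 ± 0.63 and Kcnd3 at 3.20 ± 0.79 CPM per kb. Neighbours in this order were not separated by their spread: Kcnk3 exceeded Kcnh2 in 15 of 28 libraries, Kcna5 exceeded Kcnip2 in 17 and Kcnd2 exceeded Kcnd3 in 18. The widest step was from Kcnq1 to Kcnj2, with Kcnq1 higher in 24 of 28. In CKD-Oxf the mean for Kcnh2 (21.2 ± 4.41 CPM per kb, n = 7) was above that for Kcnk3 (19.9 ± 4.09), and the same held in sham-Oxf (17.4 ± 2.42 against 15.0 ± 5.28, n = 5). In both vehicle groups Kcnk3 was above Kcnh2. In sham-Oxf Kcnj2 had the lowest mean, at 3.63 CPM per kb, against 3.84 for Kcnd2 and 3.89 for Kcnd3.

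**Figure D1:**
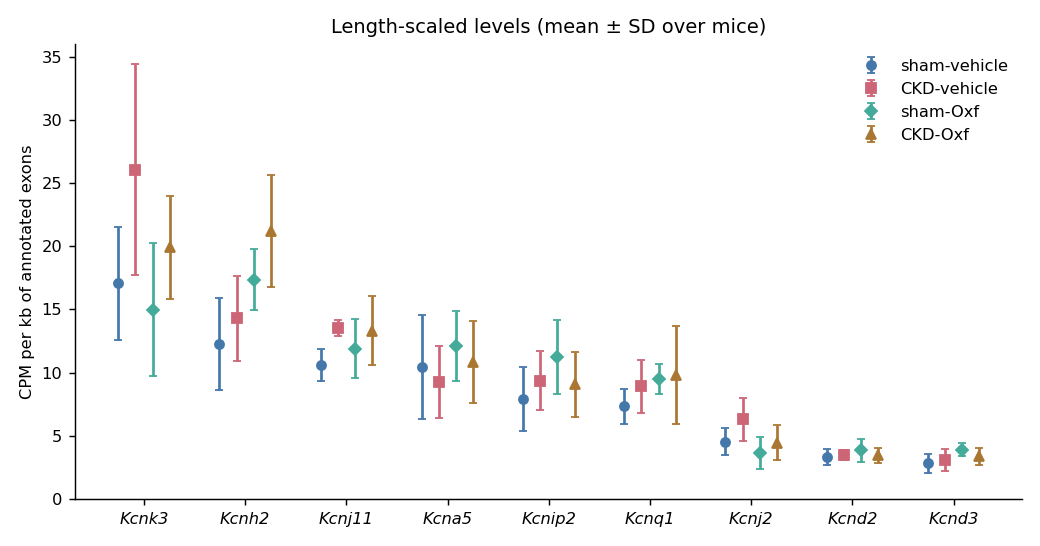
Level of each member in CPM per kb of annotated exons (vertical axis) for the 9 genes in order of their overall mean, with 1 marker per group for the mean and bars for the SD over mice. Kcnk3, Kcnh2 and Kcnj11 lie highest, and Kcnj2, Kcnd2 and Kcnd3 lowest, with every group mean under 10 CPM per kb.

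Kcnh2, the ERG pore gene, was higher after Oxf gavage. Its level in sham-vehicle ran from 38.5 to 96.6 CPM with a median of 56.7, and in CKD-vehicle from 49.3 to 95.9 with a median of 67.5. In sham-Oxf the mice had 81.1, 76.8, 103.6, 73.6 and 85.4 CPM. In CKD-Oxf the level ran from 63.2 to 130.8 CPM with a median of 101.6. The groups overlapped: sham-vehicle mice 902 and 906 and CKD-vehicle mice 919 and 920 were above the lowest sham-Oxf mouse, and CKD-Oxf mouse 934 was below the CKD-vehicle median. Group means were 59.3 ± 17.7 (SD, n = 10), 69.3 ± 16.4 (n = 6), 84.1 ± 11.8 (n = 5) and 102.7 ± 21.4 CPM (n = 7) for sham-vehicle, CKD-vehicle, sham-Oxf and CKD-Oxf. Averaged over surgery, Kcnh2 rose 1.45-fold with Oxf, a log2 change of 0.54 (SE 0.13, 95% interval 0.27 to 0.80). Its p was 0.000296 and its adjusted p over all genes tested was 0.0341 by edgeR's quasi-likelihood test. It was the only one of the 9 members called in this comparison, in which 2.81% of all genes tested were called, 1.26% higher and 1.54% lower. By unadjusted p under 0.05, 3 members (Kcnh2, Kcnj2 and Kcnd3) passed, beside 23% of all genes. The members had a median log2 change of 0.22, against 0.00 over all genes tested.

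Within each surgery, the change of Kcnh2 had the same sign and did not pass the threshold. CKD-Oxf differed from CKD-vehicle by 0.57 (SE 0.19, adjusted p = 0.235, edgeR), with 6 of 7 mice above the CKD-vehicle median and 5 of 7 above every CKD-vehicle mouse. In this comparison 0.033% of genes were called, 0.0247% of all genes as higher, and 2 members (Kcnh2 and Kcnj2) had an unadjusted p under 0.05, beside 13.1% of all genes. Sham-Oxf differed from sham-vehicle by 0.50 (SE 0.18, adjusted p = 0.26, edgeR), with 5 of 5 mice above the sham-vehicle median. No gene was called there (0% of those tested), and 3 members (Kcnh2, Kcnd3 and Kcnip2) had an unadjusted p under 0.05, beside 12.6% of all genes. The level of Kcnh2 was lower in libraries with more 7SL RNA: within groups the correlation with the log2 7SL share was -0.64 over 28 libraries, a description with no test. With the 7SL share as a covariate, a setting added once the data had been seen, the Oxf change of Kcnh2 was 0.36 (adjusted p = 0.13, edgeR). The summed level of the 5 smooth muscle and pericyte markers, correlated with Kcnh2 at -0.58 within groups, had means of 560 ± 123 and 543 ± 148 CPM in the sham and CKD mice given Oxf, and of 746.5 ± 203.5 and 747 ± 197 in those given vehicle. Rgs5 was the largest part, at a mean of 343.8 CPM, with an Oxf change of -0.745 (adjusted p = 0.0727, edgeR). Those of Myh11, Acta2 and Cnn1 were also negative, and that of Pdgfrb was 0.287 (adjusted p = 0.13, edgeR). The part of the 7SL share or of these markers in the Kcnh2 result was not tested beyond that covariate.

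**Figure D2:**
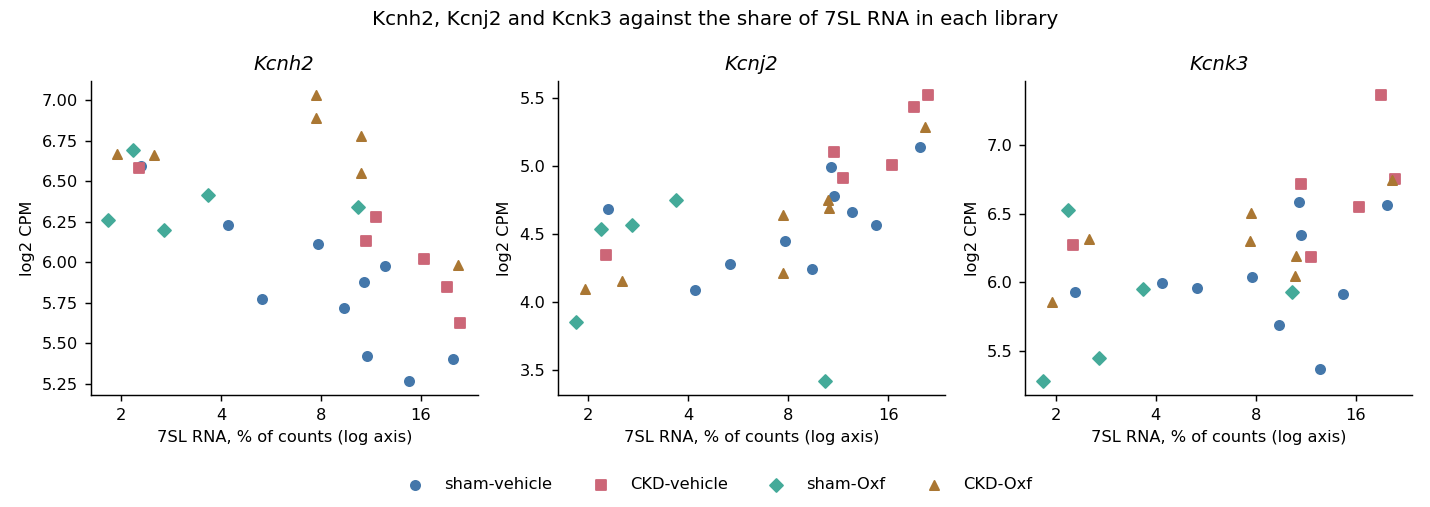
Log2 CPM of Kcnh2, Kcnj2 and Kcnk3 (vertical axes) against the share of counts on 7SL RNA in percent (horizontal log axis), 1 point per mouse. Kcnh2 is low and Kcnj2 high in libraries with large 7SL shares (within-group correlations of -0.64 and 0.48), and the points of all 4 groups overlap along the horizontal axis.

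The Kcnh2 call was close to the threshold and rested on the full set of mice. Leaving out each library in turn gave log2 changes of 0.48 to 0.59, and the gene stayed called in 15 of 28 such fits. It was lost without sham-vehicle mouse 904, 905 or 907 (adjusted p = 0.0536, 0.0513 and 0.0505), without CKD-vehicle mouse 913, 914, 916 or 918 (0.0534, 0.083, 0.0824 and 0.0608) and without sham-Oxf mouse 929 (0.0619). It was also lost without CKD-Oxf mouse 931, 932, 933, 935 or 936 (0.0599, 0.0515, 0.0618, 0.0531 and 0.051). Without CKD-Oxf mouse 934, whose 7SL share was 20.6%, the adjusted p was 0.00662 and Kcnj2 was called as well. All of these are edgeR values adjusted over all genes tested.

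Kcnj2, the inward rectifier gene, had the opposite sign and was not called. Its level in CKD-vehicle ran from 20.3 to 45.8 CPM with a median of 33.3, and in sham-vehicle from 16.96 to 35.2 with a median of 24.4. In sham-Oxf the mice had 10.7, 14.4, 23.2, 23.7 and 26.9 CPM, and CKD-Oxf ran from 17.1 to 38.9 with a median of 24.9. All 4 groups overlapped, and CKD-vehicle stood highest. The Oxf change averaged over surgery was -0.41 (SE 0.15, 95% interval -0.72 to -0.09, adjusted p = 0.119, edgeR). CKD-Oxf against CKD-vehicle gave -0.50 (SE 0.22, adjusted p = 0.332), with 6 of 7 mice below the CKD-vehicle median. Kcnj2 was higher in libraries with more 7SL RNA (within-group correlation 0.48 over 28 libraries, no test), and with the 7SL share as a covariate its Oxf change was -0.17 (adjusted p = 0.545, edgeR). Without mouse 934 it was -0.49 (adjusted p = 0.0235).

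The transient outward genes had positive Oxf changes that did not pass the test. Kcnd3 averaged 26.9 ± 7.34 CPM in sham-vehicle (n = 10) and 37.3 ± 4.75 in sham-Oxf (n = 5), where the mice had 42.9, 32.5, 33.1, 36.7 and 41.4 CPM. All 5 lay above the sham-vehicle median of 26.5 and 2 lay above every sham-vehicle mouse. That difference was 0.47 (SE 0.18, unadjusted p = 0.0151, adjusted p = 0.287, edgeR). Within groups Kcnd3 had a correlation of -0.77 with the summed fibroblast markers and -0.61 with the smooth muscle and pericyte markers (28 libraries, no test). The fibroblast correlation was also negative for Kcnip2 (-0.61), Kcnd2 (-0.60), Kcnq1 (-0.47), Kcna5 (-0.46) and Kcnh2 (-0.20). It was positive for Kcnk3 (0.72), Kcnj2 (0.305) and Kcnj11 (0.12). The fibroblast markers averaged 417 ± 137.5 CPM in sham-vehicle and 297 ± 93.2 in sham-Oxf, and their part in the Kcnd3 difference was not tested. Kcnip2 averaged 27.4 ± 8.76 and 39.1 ± 10.3 CPM in the same groups, a difference of 0.51 (SE 0.22, unadjusted p = 0.0277, adjusted p = 0.331), and all 5 sham-Oxf mice were above the sham-vehicle median. Kcnip2 also had a within-group correlation of 0.60 with the cardiomyocyte markers, and the part of either marker list in its difference was not tested. With the clock score as a covariate, the sham differences were 0.20 for Kcnd3 (adjusted p = 0.778) and 0.14 for Kcnip2 (adjusted p = 0.866). In CKD mice the gavage differences were 0.12 for Kcnd3 and -0.04 for Kcnip2, and -0.29 and -0.62 with that covariate (unadjusted p = 0.237 and 0.0488). The interaction of surgery and gavage was -0.55 for Kcnip2 (SE 0.32, 95% interval -1.20 to 0.09, adjusted p = 1, edgeR). With the clock score as a covariate it was -0.76 (unadjusted p = 0.0162, adjusted p = 0.9998, edgeR). With the 7SL share it was -0.645 (unadjusted p = 0.0452, adjusted p = 0.542, edgeR). None passed the adjustment, so a difference between sham and CKD mice was not shown. Kcnd2, Kcna5, Kcnq1 and Kcnj11 had Oxf changes averaged over surgery of 0.09, 0.22, 0.26 and 0.07, and Kcnk3 had -0.29, with adjusted p between 0.238 and 0.684. For the interaction without a covariate, 0% of genes were called and 0 members had an unadjusted p under 0.05 by edgeR (3.55% of all genes). DESeq2 and limma voom also called 0 members.

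**Figure D3:**
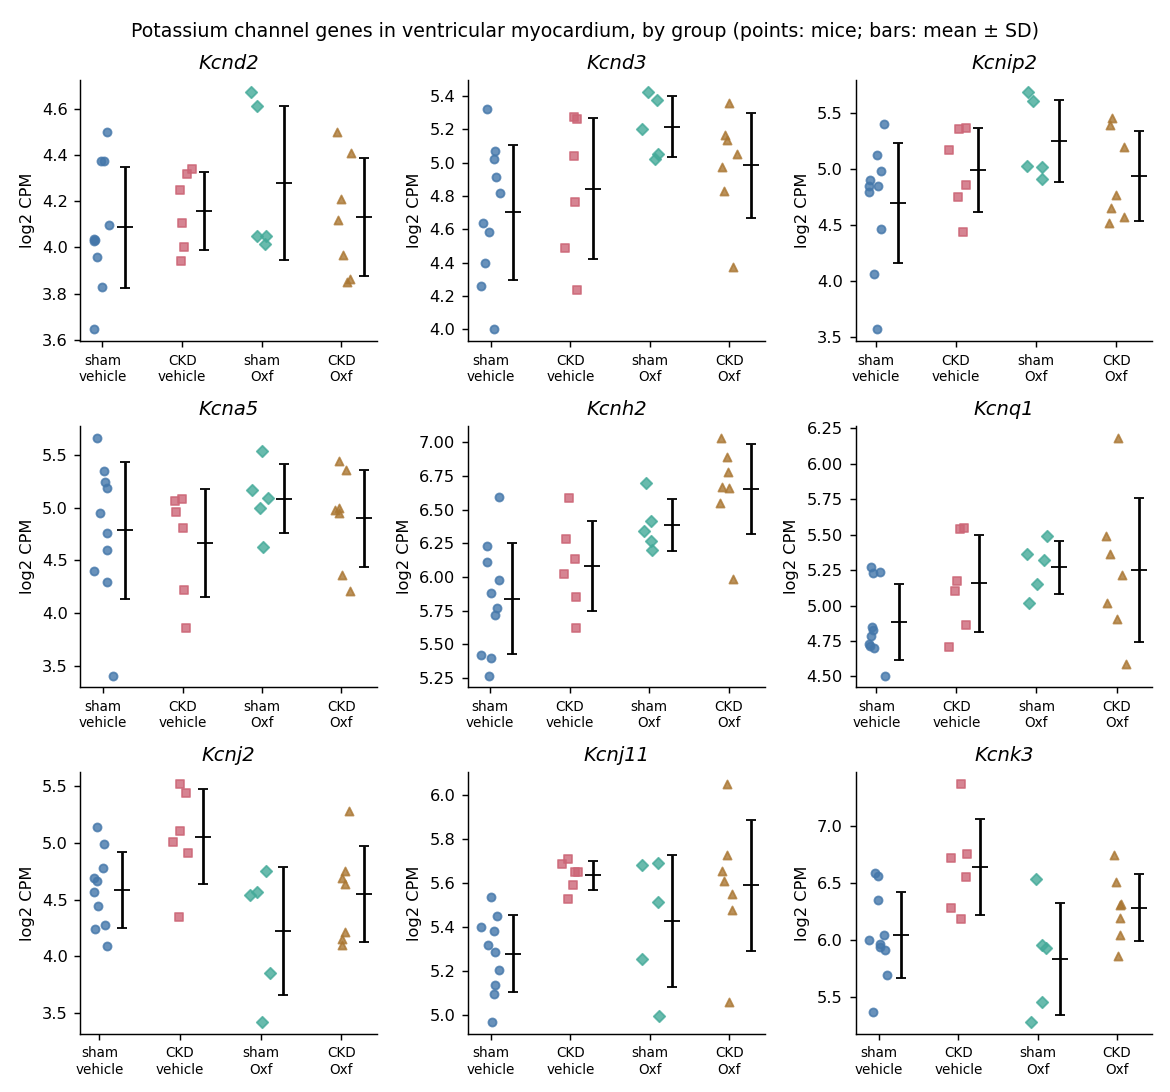
Log2 CPM of the 9 members in the 4 groups (vertical axes, 1 panel per gene), with 1 point per mouse and the mean ± SD beside the points. Kcnh2 lies highest in CKD-Oxf, every member except Kcna5 has its lowest mean in a sham group, and the groups overlap for every gene.

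CKD surgery without the bacterium called none of the members: 0.00824% of genes tested (2 genes) passed in CKD-vehicle against sham-vehicle. By edgeR 3 members had an unadjusted p under 0.05, against 4.46% of all genes, and DESeq2 and limma voom called 0 members. The members' median log2 change was 0.25, against -0.04 over all genes tested, and 8 of 9 were positive. Kcnk3, the TASK-1 gene, had 105.0, 164.9, 107.8, 93.8, 77.5 and 72.6 CPM in CKD-vehicle, and 41.3 to 96.2 with a median of 63.0 in sham-vehicle. All 6 CKD-vehicle mice were above that median and 3 were above every sham-vehicle mouse. The log2 difference was 0.61 (SE 0.19, 95% interval 0.22 to 1.00, unadjusted p = 0.00325, adjusted p = 0.955, edgeR). It was 0.41 without CKD-vehicle mouse 914 (unadjusted p = 0.0318) and 0.28 with the clock score as a covariate (unadjusted p = 0.217). The tools differed: for this Kcnk3 difference the adjusted p was 0.37 with DESeq2 and 0.0595, just above the threshold, with limma voom. CKD-Oxf mice had 58.0 to 107.2 CPM with a median of 78.9, and sham-Oxf mice 61.0, 38.9, 92.3, 43.7 and 61.8. Averaged over gavage the Kcnk3 difference was 0.51 (SE 0.15, unadjusted p = 0.00159, adjusted p = 0.242), in a comparison where 0% of genes were called and 3 members had an unadjusted p under 0.05, beside 10.6% of all genes. With the clock score as a covariate it was 0.28 (unadjusted p = 0.103).

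Kcnk3 moved with markers of several cell types. Within groups its correlation was 0.72 with the summed fibroblast markers and 0.52 with the summed atrial markers (28 libraries, no test). It was 0.53 with the smooth muscle and pericyte markers, 0.47 with the endothelial markers and 0.40 with the cardiomyocyte markers. The 5 atrial markers summed to 1976 ± 618 CPM in CKD-vehicle and 1406 ± 877 in sham-vehicle, and to 1225 ± 615.5 and 951 ± 741 CPM after Oxf in CKD and sham mice. Both Kcnk3 and these markers had their highest mean in CKD-vehicle and their lowest in sham-Oxf. CKD-Oxf lay above sham-vehicle for Kcnk3 and below it for the atrial markers. The cardiomyocyte markers had the 4 groups in the same order as Kcnk3. They averaged 32950 ± 5295, 28550 ± 5982, 25540 ± 4843 and 24090 ± 3081 CPM in CKD-vehicle, CKD-Oxf, sham-vehicle and sham-Oxf. The summed ventricular markers, at 2155 ± 975, 1410 ± 773, 1530 ± 917 and 1153 ± 553 CPM, had the order of the atrial markers. Myl2 and Myl3, at means of 990 and 557 CPM, made up most of that sum. The other ventricular markers did not have this order. Irx4 averaged 11.4, 17.8, 11.3 and 13.3 CPM in the same order of groups, and Hey2 6.17, 6.38, 6.52 and 6.02 CPM. The fibroblast markers averaged 407 ± 116 CPM in CKD-vehicle and 417 ± 137.5 in sham-vehicle. The part of any of these cell types in the Kcnk3 values was not tested.

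Kcnj11, the pore gene of the ATP-sensitive channel, had a narrow spread in CKD-vehicle. Those mice had 48.3, 52.4, 46.0, 50.2, 51.4 and 50.1 CPM, and 5 of 6 were above every sham-vehicle mouse (31.3 to 46.3 CPM, median 39.4). Means were 49.7 ± 2.28 (n = 6) and 39.0 ± 4.68 CPM (n = 10), a log2 difference of 0.35 (SE 0.12, 95% interval 0.11 to 0.59, unadjusted p = 0.00548, adjusted p = 0.955, edgeR), and 0.21 with the clock score as a covariate (unadjusted p = 0.121). CKD-Oxf ran from 33.2 to 66.3 CPM and sham-Oxf from 31.8 to 51.6, both wider than CKD-vehicle. Kcnj11 followed the summed cardiomyocyte markers (within-group correlation 0.67, no test), which averaged 32950 ± 5295 CPM in CKD-vehicle and 25540 ± 4843 in sham-vehicle. Kcnj2 was the third member with an unadjusted p under 0.05, at 0.48 (SE 0.20, p = 0.0228, adjusted p = 0.955). CKD-vehicle serves in both this comparison and that of CKD-Oxf with CKD-vehicle, so the Kcnj2 values of 0.48 and -0.50 share those 6 mice.

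Without a covariate, no remaining member had an unadjusted p under 0.05 with surgery in CKD-vehicle against sham-vehicle or averaged over gavage. Kcnh2 had a CKD difference averaged over gavage of 0.26 (SE 0.13, unadjusted p = 0.0607, adjusted p = 0.4935, edgeR). With the 7SL share as a covariate it was 0.41 (unadjusted p = 0.000952, adjusted p = 0.147, edgeR). In CKD-vehicle against sham-vehicle Kcnh2 had 0.22, and 0.32 with that covariate (unadjusted p = 0.206 and 0.0298, edgeR). None of these passed the threshold. Kcnd2 averaged 17.2 ± 3.16, 17.9 ± 2.07, 19.8 ± 4.69 and 17.7 ± 3.22 CPM in sham-vehicle, CKD-vehicle, sham-Oxf and CKD-Oxf, with a CKD difference averaged over gavage of -0.05 (95% interval -0.26 to 0.16). Kcna5 averaged 29.9 ± 11.8, 26.5 ± 8.17, 34.6 ± 7.89 and 31.1 ± 9.35 CPM in the same order. Kcnq1 averaged 30.0 ± 5.74, 36.5 ± 8.64, 38.8 ± 4.92 and 40.3 ± 15.9 CPM, the last with mouse 931 at 72.6 CPM. A share of 2.96% of the Kcnq1 exon bases are shared with the overlapping gene Kcnq1ot1, 1.72% of those of Kcnd3 with an antisense gene and 5.76% of those of Kcnk3 with Gm9899. Whether counting used strand is not given in the sources used here, so reads of these stretches could belong to either gene. CKD-Oxf against sham-Oxf called 0% of genes, and 0 members had an unadjusted p under 0.05 by edgeR (8.23% of all genes), with 0 members called by DESeq2 and limma voom.

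**Figure D4:**
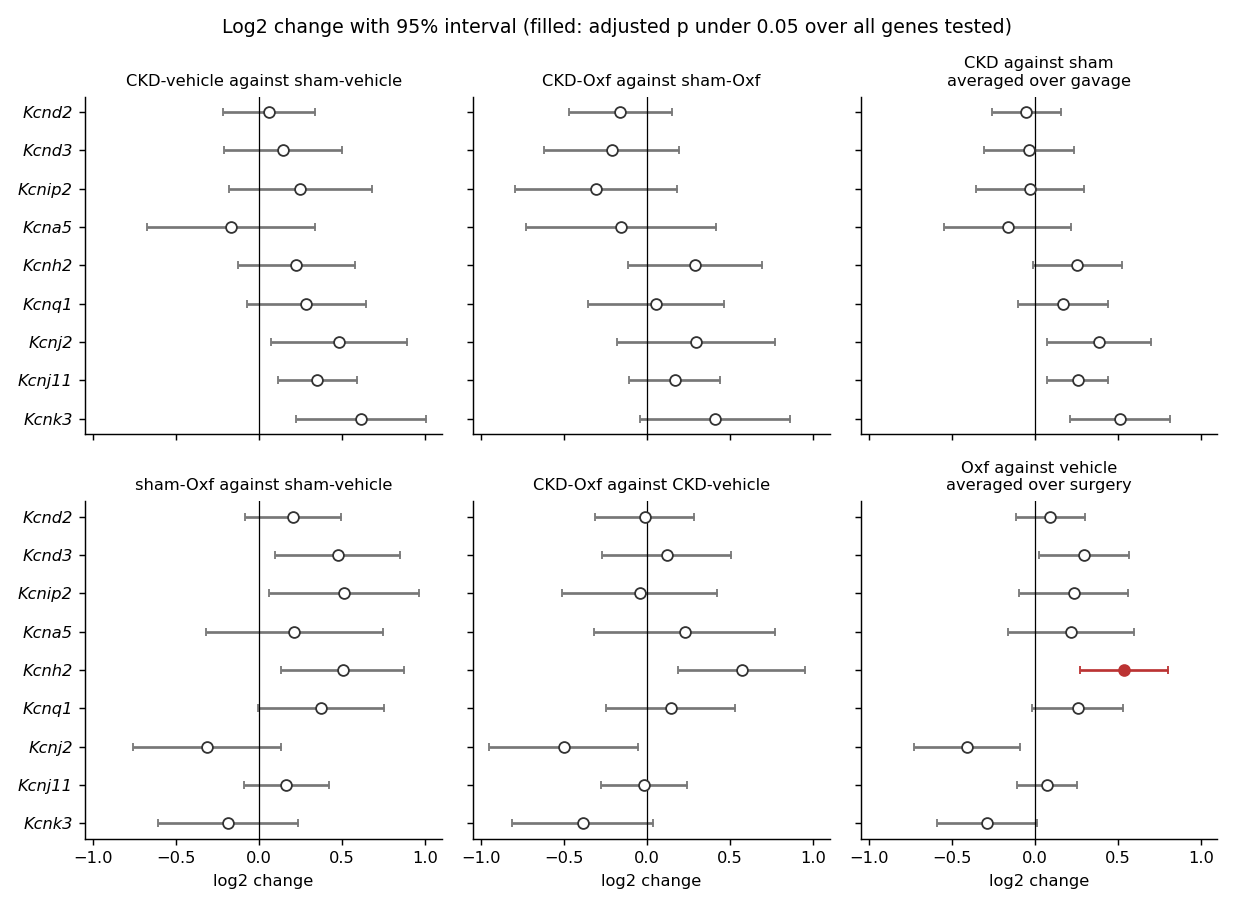
Log2 change of each member (horizontal axes) in 6 comparisons with its 95% interval, filled where the adjusted p over all genes tested was under 0.05. Kcnh2 in Oxf against vehicle averaged over surgery, at 0.54, is the filled point.

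Against mouse number, Kcnip2 in sham-vehicle, the largest group, had the smallest p of r among the members. Its level was 11.8, 16.7, 28.8, 27.6, 28.7, 22.1, 31.6, 34.8, 42.3 and 29.9 CPM from mouse 901 to mouse 910, lowest at the first numbers and highest at 909. On the log2 CPM scale Pearson's r was 0.79 (permutation p = 0.00426, two-sided) and Spearman's rho 0.82 (permutation p = 0.00567), and r stayed at 0.79 when the 2 outermost mouse numbers were left out. In the fit across all genes the slope was 0.14 log2 units per mouse number (SE 0.04, unadjusted p = 0.0017), and it did not pass the adjustment (adjusted p = 1, edgeR, with 0.0124% of genes called and 0.902% at an unadjusted p under 0.05). In the other groups of 6 or more mice, r was 0.54 in CKD-vehicle (exact permutation p = 0.261, n = 6) and -0.42 in CKD-Oxf (exact permutation p = 0.359, n = 7). Sham-Oxf had 32.4, 30.0, 32.6, 48.7 and 51.6 CPM in the order of its numbers. The common slope within groups was 0.07 (SE 0.03, unadjusted p = 0.0139, adjusted p = 0.825, edgeR). The 4 slopes differed at an unadjusted p of 0.026 (adjusted p = 0.594).

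Kcnk3 had the opposite order in CKD-vehicle, where r was -0.80 (exact permutation p = 0.0472, two-sided) and rho -0.83 (exact permutation p = 0.0583), with r of -0.98 over the 4 mice left without the 2 farthest numbers. Leaving out mouse 913 gave r of -0.98 (exact permutation p = 0.00833), and leaving out 914, 916, 918, 919 or 920 gave r between -0.86 and -0.72, with exact permutation p between 0.0667 and 0.133. Its slope there was -0.13 (SE 0.06, adjusted p = 0.896, edgeR, with 0.00412% of genes called). By unadjusted slope p under 0.05, 2 members passed there (Kcnk3 and Kcnd3), beside 2.44% of all genes. In all, 27 relations of the 9 members with mouse number were computed in the 3 groups of 6 or more mice. Of these, 2 had an unadjusted permutation p of r under 0.05: those of Kcnip2 and Kcnk3. The permutation test was run on the members only, so no share over all genes stands beside this count. In CKD-Oxf 8 of 9 correlations were negative, with 0 p-values of r under 0.05 and 0% of genes called for the slope, while in CKD-vehicle 7 and in sham-vehicle 6 of 9 were positive. In sham-Oxf, the group of 5, the Kcnj2 values given above increase in the order of the numbers. Their slope was 0.17 (SE 0.06, adjusted p = 0.121, edgeR) and did not pass the test, in a fit that called 1.42% of genes, 1.04% of all genes with a negative slope. Its lowest value was that of mouse 921, the library with the fewest genes detected. For the common slope 0.0371% of genes (0.0288% with a positive slope) and 0 members were called by edgeR. There 1 member, Kcnip2, had an unadjusted p under 0.05, beside 5.5% of all genes, and DESeq2 and limma voom called 0 members. For the difference of the 4 slopes 0% of genes were called and 7.43% had an unadjusted p under 0.05, and Kcnj2, Kcnip2 and Kcnd2 had unadjusted p of 0.0138, 0.026 and 0.0317.

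**Figure D5:**
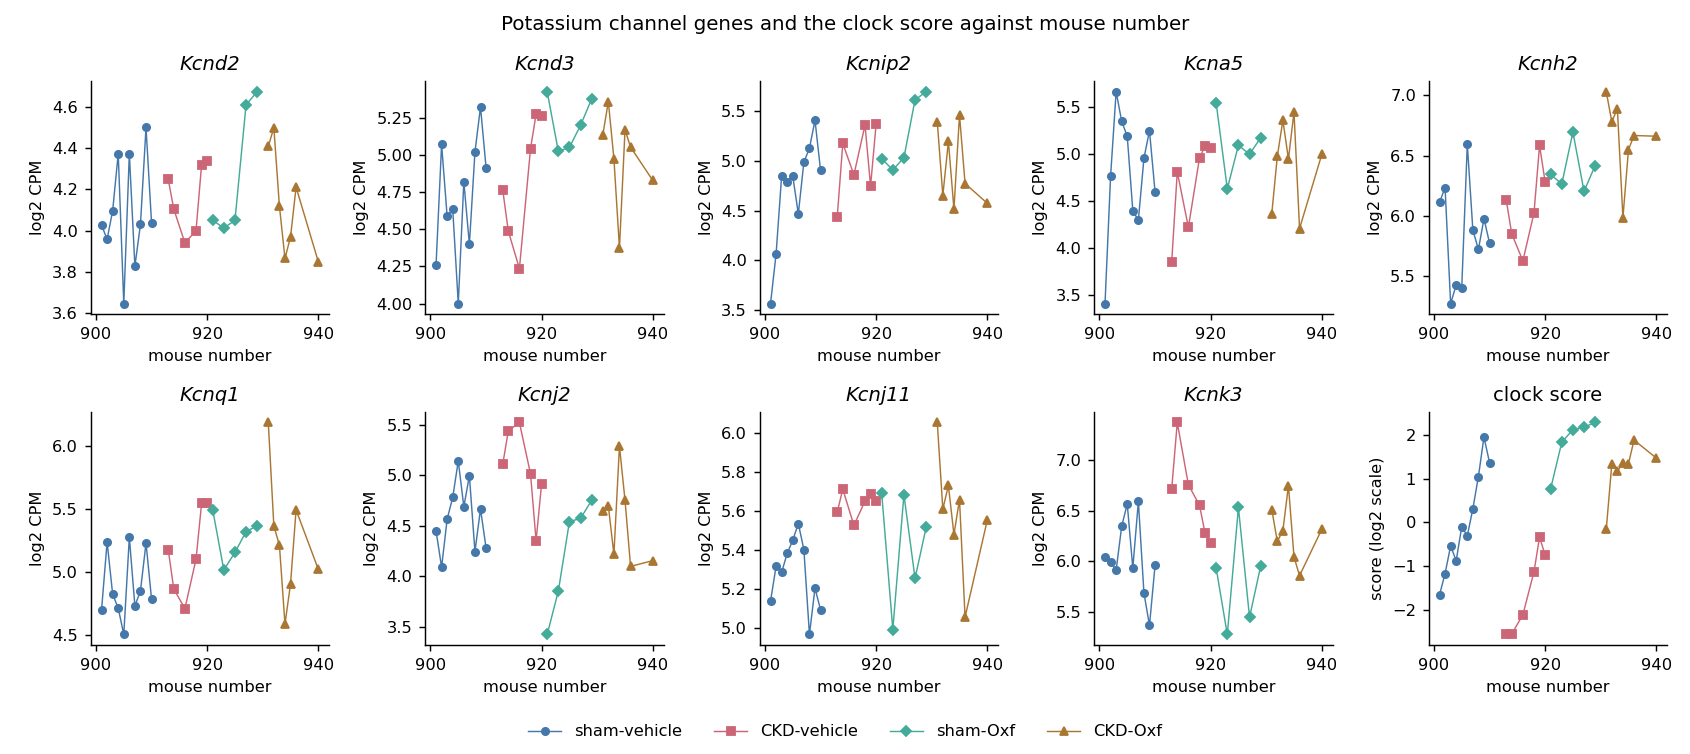
Log2 CPM of each member and the clock score (vertical axes) against mouse number (horizontal axis), 1 point per mouse joined within groups. Kcnip2 in sham-vehicle is lowest at mouse 901 (3.57) and highest at mouse 909 (5.40), and the clock score lies below 0 in all CKD-vehicle mice and above 0 in all sham-Oxf mice.

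Clock genes differed with mouse number and with group: of the 10 genes that peak with Dbp, 5 were called with a positive common slope on mouse number and 7 were called higher with Oxf (edgeR). After vehicle the clock score ran from -1.66 to 1.95 in sham mice and from -2.56 to -0.34 in CKD mice. After Oxf it ran from 0.77 to 2.28 in sham mice and from -0.16 to 1.88 in CKD mice. Dbp, a clock output gene, averaged 52.1 ± 25.3, 22.0 ± 14.2, 100.1 ± 24.1 and 93.3 ± 18.0 CPM in sham-vehicle, CKD-vehicle, sham-Oxf and CKD-Oxf, and Arntl, the activator of opposite phase, 13.7 ± 8.31, 24.2 ± 7.22, 2.64 ± 1.37 and 6.71 ± 4.003. The clock scores of CKD-vehicle did not overlap those of either Oxf group, so in those comparisons clock phase and group cannot be told apart. In sham-vehicle Kcnip2 had r of 0.84 with the clock score (permutation p = 0.00155) and rho of 0.90 (permutation p = 0.00081), with r of 0.85 without the 2 farthest scores, over 10 mice. Both quantities follow the same order of mice. The slope of Kcnip2 on the clock score within all groups, added after seeing the data, was 0.22 (SE 0.08, unadjusted p = 0.0134, adjusted p = 0.588, edgeR), in a fit that called 0.144% of genes (0.0288% with a negative slope) and 0 members. That share includes genes that make up the score: 9 of the 10 that peak with Dbp and 3 of the 4 that peak with Arntl. By unadjusted p under 0.05, 3 members passed in that fit, beside 7.6% of all genes. Besides Kcnip2 these were Kcnd3 at 0.16 (unadjusted p = 0.022) and Kcnk3 -0.19 (unadjusted p = 0.0216), while Kcnh2 had 0.00 (unadjusted p = 0.966). Of 27 within-group relations with the clock score, 4 had an unadjusted permutation p of r under 0.05. They were Kcnip2 in sham-vehicle, Kcnj2 (r -0.83) and Kcnk3 (r -0.84) in CKD-vehicle, and Kcnj11 (r -0.88) in CKD-Oxf. Here too the permutation test was run on the members only, with no share over all genes. With the clock score as a covariate the Oxf change of Kcnh2 was 0.53 (unadjusted p = 0.0184, adjusted p = 0.596). The same covariate turned the sign of the uncalled Oxf changes of 5 members: from 0.23 to -0.24 for Kcnip2, from -0.29 to 0.18 for Kcnk3, from 0.30 to -0.05 for Kcnd3, from 0.22 to -0.08 for Kcna5 and from 0.09 to -0.01 for Kcnd2. That of Kcnj11 went from 0.07 to 0.27. None of these was called with it.

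The members varied together to different degrees inside groups. After subtraction of group means, over 28 libraries and with no test, Kcnq1 correlated with Kcnd3 at 0.72, with Kcnh2 at 0.71 and with Kcnd2 at 0.63, and Kcnd2 with Kcnd3 at 0.60. Kcnk3 had 0.54 with Kcnj11 and 0.53 with Kcnj2, while Kcnj2 and Kcnj11 had 0.22 with each other. Kcnd3 had -0.63 with Kcnk3 and -0.53 with Kcnj2, whereas Kcnj11 was positive with Kcnq1 (0.31), Kcnh2 (0.31), Kcnd2 (0.08) and Kcnd3 (0.04). Kcnip2 correlated best with Kcna5, at 0.54. These points share libraries, depth and the 7SL share. Among 13905 other genes whose mean level reached 1 log2 CPM, the 3 most like Kcnh2 by the same measure included Sgsm2 (0.86) and Slc25a23 (0.86). The 3 most like Kcnip2 included Smyd2 (0.83) and Setd8 (0.83), and those most like Kcnk3 were Tmem109 (0.93), Reep5 (0.91) and Dag1 (0.90). For Kcnj2 they were Trmt2b (0.93), Scrn3 (0.91) and Cox14 (0.91). The nearest gene was Ralgapa2 for Kcnd2 (0.82), Pogz for Kcnd3 (0.91), Sema7a for Kcna5 (0.92), Sox6 for Kcnq1 (0.90) and Sptb for Kcnj11 (0.88).

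Other potassium channel genes gave few calls. Of 36 further pore genes 35 were tested, and in Oxf against vehicle averaged over surgery 2 were called higher and 0 lower, beside 2.81% of all genes. Of these, Kcnn1, a small-conductance calcium-activated channel, averaged 5.07 ± 0.56, 6.43 ± 0.97, 6.98 ± 1.18 and 7.91 ± 1.45 CPM in sham-vehicle, CKD-vehicle, sham-Oxf and CKD-Oxf and rose by 0.38 (SE 0.10, adjusted p = 0.038, edgeR). The Kcnn1 call stood in 16 of the 28 fits that each left out a library. Of 28 accessory genes 22 were tested and 1 was called: Kcnip1, a relative of Kcnip2, by 1.39 (SE 0.30, adjusted p = 0.0202, edgeR), which stayed called in 28 of 28 such fits. With the clock score as a covariate 0 genes were called in this comparison, so neither the Kcnn1 nor the Kcnip1 call stood. The level of Kcnip1 was very low, 0.35 ± 0.15, 0.16 ± 0.06, 1.01 ± 0.94 and 0.38 ± 0.14 CPM in the same order. In sham-Oxf its median was 0.54 CPM and its highest value 2.66 CPM. Of 10 regulators of channel transcription, Klf15, Irx5 and Nfatc3 among them, 0 were called in this comparison by edgeR and 4 had an unadjusted p under 0.05, beside 23% of all genes. In the 6 other group comparisons and the common slope, 0 genes of these lists were called by edgeR. In CKD-vehicle against sham-vehicle, 8 of 35 pore genes and 4 of 22 accessory genes had an unadjusted p under 0.05. There 0 of 10 regulators did, beside 4.46% of all genes. In the rest, 0 to 5 pore genes, 1 to 4 accessory genes and 0 to 3 regulators did, beside 3.55% to 13.1% of all genes.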

How the data were processed

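Total RNA from ventricular myocardium was sequenced on an Illumina NovaSeq, per the labels' protocols. The deposited table holds raw read counts per gene. The submitters' processing notes name FastQC 0.11.7, MultiQC 1.9, STAR 2.6.1d, Subread, featureCounts 1.6.3 and the build mm10; annotation and strand setting are not given in the sources used here. Mice of the series' design text without a library were not analysed here.

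Counts were tested on the whole table with edgeR 4.0.16 in R 4.3.3: TMM scaling, filterByExpr by group (minimum count 10), robust quasi-likelihood fits over 28 libraries, Benjamini-Hochberg adjustment over 24273 genes and a threshold of 0.05. CPM uses TMM library sizes, and log2 CPM a prior count of 2. Correlations within groups used exact permutations, or 100000 for 10 mice. Intervals have 95% confidence. DESeq2 1.42.0 and limma 3.58.1 (voom with sample weights) were alternatives, with others in the closing section. The fit was tested on simulated data. The members and lists were chosen with earlier results of these data known. All 9 members are described; other listed genes are named where they passed the threshold in a group comparison or the common slope. A few genes that this rule names are not reported here. Gene models and lengths are GENCODE's for GRCm38. P-values measure the spread between mice; litter, cage and harvest were not stated.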

Additional observations from a re-analysis of the deposited data

How the results depend on the processing

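No paired analysis was possible because the labels give no replicate numbers that groups share. Of 2736 member values under alternatives to 117 main values, 141 changed sign and 29 were past the threshold; no called member value changed sign. The 1 member called in Oxf against vehicle became 0 with the clock score as a covariate, 0 with the 7SL share as a covariate (chosen after seeing the data) and 0 to 2 with a library left out. For Kcnh2 the adjusted p was 0.0089 with DESeq2, 0.00124 with limma voom, 0.0359 with DESeq2 size factors and 0.0491 without the low count filter. CKD-Oxf against CKD-vehicle called 0 members, 2 with limma voom (Kcnh2 and Kcnj2) and 0 to 1 with a library left out, the 1 being Kcnh2 without CKD-Oxf mouse 934. Slopes in each group called 0 members, 1 with DESeq2 (Kcnj2 in sham-Oxf) and 4 with limma voom (Kcnd3, Kcnq1, Kcnj2 and Kcnk3 in CKD-vehicle). The 2 relations with mouse number became 1 to 3 with a mouse left out: 1 without CKD-vehicle mouse 918, 919 or 920, and 3 without sham-vehicle mouse 902 or CKD-Oxf mouse 934 or 940. Without CKD-vehicle mouse 914 or 916 the 2 were those of Kcnip2 and Kcna5.

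Counts over all genes depended more on the tool. Oxf against vehicle called 681 genes, 2006 with DESeq2, 5336 with limma voom, 161 without the filter, 0 with the clock score, 132 with the 7SL share and 109 to 3362 with a library left out, the most without mouse 934. CKD-Oxf against CKD-vehicle called 8, 190 with DESeq2, 3639 with limma voom, 5 with DESeq2 size factors, 5 without the filter, 0 with the clock score, 23 with mouse number and 0 to 927 with a library left out, the most without mouse 934. CKD-vehicle against sham-vehicle called 2, 29 with DESeq2, 93 with limma voom, 1 without the filter, 0 with the clock score, 4 with mouse number, 22 with the 7SL share, 1 with the compared groups only and 0 to 1 with a library left out. Sham-Oxf against sham-vehicle called 0, 131 with DESeq2, 34 with limma voom, 2 with the clock score, 7 with mouse number, 141 with the 7SL share and 0 to 20 with a library left out. CKD-Oxf against sham-Oxf called 0 and 97 with DESeq2. CKD against sham averaged over gavage called 0, 103 with DESeq2, 126 with limma voom, 2 with the clock score, 2 with mouse number, 45 with the 7SL share and 0 to 1 with a library left out. The interaction called 0 in every alternative run. The common slope called 9, 40 with DESeq2, 31 with limma voom, 17 without the filter, 0 with the clock score and 2 to 15 with a library left out. The slope in sham-vehicle called 3, 10 with DESeq2, 11 with limma voom and 0 to 3 with a library left out. In CKD-vehicle it called 1, 8392 with limma voom and 0 to 1 with a library left out. In sham-Oxf it called 344, 1851 with DESeq2, 0 with limma voom, 176 without the filter and 0 to 5718 with a library left out (0 without mouse 921 or 927, 5718 without 923, 110 without 925 and 683 without 929), and in CKD-Oxf 0, 5 with DESeq2 and 947 with limma voom. The clock score slope called 35, 124 with DESeq2, 102 with limma voom and 16 to 46 with a library left out. The cause of these changes was not tested. With 5 to 10 mice a group, precision is limited: the 95% interval of Kcna5 in sham-Oxf against sham-vehicle ran from -0.32 to 0.74.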

Other observations

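The genes in these lines fall outside the rule for named genes and were chosen after their values were seen. On the clock score within groups, Kcne1, the partner of Kcnq1 in the slow delayed rectifier, fell by 0.77 per unit of score (SE 0.15, adjusted p = 0.0295, edgeR; past the threshold in 22 of 28 fits that left out a library). Its level was low: 1.02 ± 0.59 and 1.902 ± 0.69 CPM in sham and CKD mice given vehicle, and 1.15 ± 1.08 and 0.69 ± 0.50 CPM in those given Oxf. Klf15, a clock-controlled regulator of Kcnip2, rose by 0.29 per unit (SE 0.06, adjusted p = 0.0417; 17 of 28 such fits). In that fit 0.144% of genes were called, a share that includes genes of the score itself.

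Abcc9, a sulfonylurea receptor that pairs with Kcnj11, averaged 195.6 ± 45.0, 195.7 ± 30.2, 194.7 ± 51.5 and 190.6 ± 48.7 CPM in sham-vehicle, CKD-vehicle, sham-Oxf and CKD-Oxf, with a CKD difference averaged over gavage of -0.01 (95% interval -0.28 to 0.25), beside 0.26 for Kcnj11. Kcnj3 and Kcnj5, the pores of the acetylcholine-gated atrial current, had their highest means in CKD-vehicle: 91.5 ± 22.0 CPM for Kcnj3 and 70.5 ± 15.3 for Kcnj5, against 63.6 ± 34.0 and 48.8 ± 14.8 in sham-vehicle. Neither difference was called (adjusted p = 0.955 for both, edgeR). The summed atrial, cardiomyocyte and ventricular markers also had their highest means in CKD-vehicle, and their part in these values was not tested.

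Of 36 groups of member values checked for 1 mouse far from the others, 0 passed the limit, where chance gives 1.8.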
